A study of Mus musculus with 6 samples.

Results

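AP-1 is a family of dimeric transcription factors, and 8 genes that encode its FOS, JUN and BATF subunits are described here in AML12 cells after knockdown of Setdb1. The members Fos, Fosb, Fosl1, Fosl2, Jun, Junb, Jund and Batf3 were found by their symbols, 1 row each, among 25416 genes of the deposited table. Of these 8 genes, 6 had at least 0.5 FPKM (reads scaled by exon length and by library total) in 3 or more of 6 libraries and entered the test, and Fosb and Batf3 did not. The AML12 line was derived from hepatocytes of a mouse with a human TGF alpha transgene, whose product activates the EGF receptor, and both groups share it. The cells were transfected with scrambled RNA (siNC, n = 3) or with siRNA against Setdb1 (siSetdb1, n = 3), and mRNA was sequenced at 72 h. Whether the replicates were separate cultures is not stated, so each p reflects the spread among these libraries alone, and that spread may be technical. The members were chosen by their family and selected on their log2 fold changes between siSetdb1 and siNC, which were already known, so their values in this contrast are a description, no p is given for them, and whether they passed the fit supports nothing.

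FOS proteins do not pair with each other and bind DNA only with a JUN partner, whereas JUN proteins can also pair among themselves. BATF proteins pair with JUN proteins and lack the activating domains of FOS. Fos, Fosb, Jun and Junb are immediate-early genes, whose short-lived transcripts appear within minutes of growth factor or stress signals through the MAP kinases ERK, JNK and p38. In the liver, JUN is known for its part in hepatocyte proliferation during development and regeneration. Fosl1 and Fosl2 encode FRA-1 and FRA-2, which lack the strong activating region of FOS and are made later and more steadily.

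The knockdown and the character of the cells were checked first. Setdb1, the histone H3 lysine 9 methyltransferase gene, had 8.41 to 9.43 FPKM in siNC and 3.29 to 4.29 FPKM in siSetdb1, with no overlap. Library totals recovered from the FPKM values were 16790582 to 17835060 reads. On the first 2 principal components siNC replicate 1 lay apart from the other siNC libraries, at -26.7 against -11.7 and -10.8 on the first. Of 8 hepatocyte markers all 8 passed the filter, with summed levels of 2827 to 3237 FPKM in siNC and 3356 to 3476 FPKM in siSetdb1. Most of that sum was the keratins Krt8 and Krt18, of which Krt18 rose, whereas markers that encode secreted liver proteins were lower in siSetdb1. Trf (transferrin) fell from 23.8 to 8.67 FPKM and Ttr (transthyretin) from 27.5 to 7.02 FPKM on average (limma adjusted p = 0.00816 and 0.0247). Apoa1 had means of 22.9 and 8.38 FPKM and did not pass. Albumin (Alb), which did not pass either, had 5.47, 4.05 and 14.3 FPKM in siNC and 1.88, 1.45 and 4.50 FPKM in siSetdb1. Hnf4a, a defining factor of hepatocytes, had 27.1 to 38.2 FPKM over the 6 libraries. The 3 biliary markers in the table summed to 1355 to 1618 FPKM in siNC and 1496 to 1666 FPKM in siSetdb1, most of it Krt19 (1204 to 1444 FPKM). The other biliary markers rose, Sox9 from 4.95 to 9.26 FPKM and Krt7 from 154 to 218 FPKM on average (limma adjusted p = 0.0068 and 0.00827). Macrophage markers (4 of 5 in the table) summed to 4.75 to 6.64 FPKM in siNC and 2.39 to 3.17 FPKM in siSetdb1, nearly all of it Cd68, and Ptprc was under 0.01 FPKM in each library. Fibroblast markers (4 of 6 in the table) summed to 0.653 to 0.692 FPKM in siNC and 0.955 to 1.36 FPKM in siSetdb1, mostly Des. All 4 endothelial markers were under the filter in each group, with sums of 0.0488 to 0.122 FPKM in siNC and 0.111 to 0.187 FPKM in siSetdb1. In bulk RNA, fewer cells with a transcript and less of it per cell cannot be told apart. The part of these marker differences in the values below was not tested.

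Of the 6 tested members, 3 passed the fit over all 12846 tested genes (limma, Benjamini-Hochberg adjusted p under 0.05), and all 3 were higher in siSetdb1: Fos, Junb and Jun. In the same fit 6.87% of all tested genes were called higher and 8.27% lower. Because the family was chosen with this contrast in view, nothing is read from the members' share. The sequences just before the start sites of these 3 genes are shown as a description only, since the members were selected on this contrast. They are the 250 bases upstream of the RefSeq start (GRCm38.p6, the assembly of mm10), each 5′ to 3′ on the gene's strand. Fos is at chr12:85473640-85473889 (plus strand), Jun at chr4:95052223-95052472 (minus strand) and Junb at chr8:84978749-84978998 (minus strand). Capitals mark matches on either strand to TGACGT (the core of the cAMP response element), TGACATCA (a variant of the AP-1 site), CCAAT and TATAAA.

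Fos: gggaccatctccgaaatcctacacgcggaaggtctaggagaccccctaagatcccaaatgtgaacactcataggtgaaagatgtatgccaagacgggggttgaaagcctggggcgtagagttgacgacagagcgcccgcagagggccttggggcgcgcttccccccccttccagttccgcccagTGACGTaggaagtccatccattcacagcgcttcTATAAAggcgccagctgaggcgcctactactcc

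Jun: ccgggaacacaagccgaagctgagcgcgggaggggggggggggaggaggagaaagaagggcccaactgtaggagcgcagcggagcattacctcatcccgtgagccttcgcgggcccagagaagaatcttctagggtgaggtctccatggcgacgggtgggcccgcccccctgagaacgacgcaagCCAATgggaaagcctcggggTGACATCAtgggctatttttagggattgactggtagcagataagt

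Junb: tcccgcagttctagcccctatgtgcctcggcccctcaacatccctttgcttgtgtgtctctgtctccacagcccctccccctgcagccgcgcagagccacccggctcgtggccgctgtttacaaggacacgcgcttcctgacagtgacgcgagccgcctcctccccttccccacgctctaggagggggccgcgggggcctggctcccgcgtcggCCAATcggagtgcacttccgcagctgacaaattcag

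Counted back from the start, Fos held TGACGT at -66 to -61 and a TATA box at -33 to -28. Jun held TGACATCA at -45 to -38 and CCAAT at -65 to -61, and Junb held CCAAT at -36 to -32. Among 32851 RefSeq windows of the same length, 6.47% held TGACGT, 2.93% TGACATCA, 33.8% CCAAT and 12.4% TATAAA. The GC box GGGCGG, not in capitals, was found in Fos at -74 to -69 and in Jun at -89 to -84, each on the opposite strand, and in 32.7% of all windows. The consensus AP-1 site TGACTCA (4.46% of windows), the full element TGACGTCA (1.55%, which contains TGACGT) and the CArG box bound by SRF (1.47%) were not in these windows for any of the 7 members with a RefSeq entry. That says only that these letters are not within 250 bases upstream of those starts. The starts of Fos and Jun are those of GENCODE M21, and that of Junb lies 30 bases from it. For Batf3, Fosl2 and Jund the RefSeq start lies 567, 671 and 1210 bases from the GENCODE gene start, and their windows are not shown. Fosb, whose starts lie 6 bases apart, was not tested, and its window is not shown either.

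Fos, the founding member of the FOS branch, had the largest difference of the 6 tested members. Fos (ENSMUSG00000021250, mm10 chromosome 12, 85473890 to 85477273, plus strand) has 4 exon blocks that sum to 2352 bases. Its level was 2.81, 2.71 and 2.95 FPKM in siNC and 10.1, 11.0 and 12.3 FPKM in siSetdb1. Every siSetdb1 library lay more than 3 times above every siNC library, and the siNC values differed little from each other. The mean went from 2.82 ± 0.12 to 11.1 ± 1.1 FPKM (SD, n = 3 per group), a ratio of 3.94. The log2 difference was 1.66 (SE 0.08); here and below it is taken on log2(FPKM + 1), so changes of low genes are understated. The siNC values came from 111, 111 and 119 reads, and the siSetdb1 values from 412, 440 and 516. Among all listed genes the mean of Fos stood at percentile 64.1 in siNC and 81.9 in siSetdb1.

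The other FOS genes differed less. Fosl1 (ENSMUSG00000024912, chromosome 19, 5447547 to 5455946, plus strand), the FRA-1 gene, had 9.78, 7.91 and 9.36 FPKM in siNC and 9.85, 11.3 and 13.9 FPKM in siSetdb1. The groups did not overlap, but siSetdb1 replicate 1 lay only just above siNC replicate 1, as Fos, Jun and Junb also did not. Groups that did not overlap were found for 39.2% of all tested genes, with siSetdb1 above in 17.6% and below in 21.6%. The difference was 0.33 on the log2 scale (SE 0.13, 95% interval 0.03 to 0.63), and Fosl1 did not pass the fit over all genes. Ccdc85b, a protein-coding gene on the opposite strand, shares 1163 exonic bases with Fosl1, 57.2% of the Fosl1 exon length. The library protocol names no step that keeps strand, so reads from this stretch cannot be told apart. Ccdc85b had 13.2 to 16.0 FPKM in siNC and 8.91 to 11.8 FPKM in siSetdb1, lower where Fosl1 was higher. With trends in GC content and gene length removed, Fosl1 was among the genes called (0.44).

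Fosl2 (ENSMUSG00000029135, chromosome 5, 32135801 to 32157842, plus strand), the FRA-2 gene, had 8.05, 8.14 and 9.56 FPKM in siNC, and its siSetdb1 levels were 10.9, 9.72 and 9.06 FPKM. The groups overlapped through siNC replicate 3 and siSetdb1 replicate 3. With 1309 to 1831 reads per library behind it, the difference was 0.19 (SE 0.10, 95% interval -0.03 to 0.41). Fosb (ENSMUSG00000003545, chromosome 7, 19302696 to 19310051, minus strand), an immediate-early gene like Fos, stayed near the detection limit. It had 0.105, 0.110 and 0.140 FPKM in siNC and 0.102, 0.188 and 0.153 FPKM in siSetdb1, and the groups overlapped. Summed over 3 libraries this was 38 reads in siNC (exact Poisson 95% interval 26.9 to 52.2) and 48 reads in siSetdb1 (35.4 to 63.6). The intervals cover counting error only, and they overlap, which is not a test of a difference. Whether Fosb differed between the groups was not tested.

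Junb was by far the most abundant member on the per-length scale. Junb (ENSMUSG00000052837, chromosome 8, 84974484 to 84978718, minus strand) encodes a JUN protein that is a weaker activator than JUN and can oppose it. Its level was 140, 133 and 116 FPKM in siNC and 194, 192 and 243 FPKM in siSetdb1. The groups did not overlap, and siSetdb1 replicate 3 was the highest. The mean went from 130 ± 12 to 210 ± 29 FPKM, a ratio of 1.62 and a log2 difference of 0.69 (SE 0.11), with 4592 to 9952 reads per library. Its exons share 173 bases (7.52% of its exon length) with Prdx2 on the opposite strand, which had 93.4 to 113 FPKM in siNC and 76.9 to 81.1 FPKM in siSetdb1.

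Jun (ENSMUSG00000052684, chromosome 4, 95049034 to 95052222, minus strand), a gene of a single exon and the main target of JNK in the family, had 6.89, 4.83 and 6.85 FPKM in siNC. In siSetdb1 it had 8.89, 8.83 and 8.76 FPKM, all above every siNC library. The siSetdb1 libraries were close together, and siNC replicate 2 lay below the other siNC libraries. The mean went from 6.19 ± 1.18 to 8.83 ± 0.07 FPKM, a ratio of 1.43, and the log2 difference was 0.47 (SE 0.12). Jun did not pass without siNC replicate 2 (0.32) or without siSetdb1 replicate 1, 2 or 3 (0.46, 0.46 and 0.47), nor with no filter on low values. As a description only, Fos and Junb passed without any 1 of the 6 libraries. Thus 2 members passed without those 4 libraries and 3 without siNC replicate 1 or 3. Over all tested genes, 683 to 2176 passed with 1 library left out. Nothing is read from the counts of members, which were selected on this contrast. The antisense gene Junos, which shares 232 exonic bases with Jun, had 0.0419 to 0.156 FPKM over the 6 libraries.

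Jund (ENSMUSG00000071076, chromosome 8, 70698949 to 70700616, plus strand), also of a single exon, encodes the JUN protein that is made most steadily in resting cells. Its level was 3.57, 3.03 and 4.22 FPKM in siNC and 2.92, 3.02 and 4.13 FPKM in siSetdb1, and the groups overlapped throughout. The log2 difference was -0.08 (SE 0.14, 95% interval -0.40 to 0.23), from 84 to 123 reads per library, and it was 0.07 with GC and length trends removed. The interval includes 0. An antisense gene, Gm11175, shares 877 exonic bases with Jund (52.6% of the Jund exon length) and is not listed in the deposited table. As for Fosl1, reads from the shared stretch cannot be told apart by strand, which limits each Jund level given here. Batf3 (ENSMUSG00000026630, chromosome 1, 191097847 to 191108945, plus strand), best known as a factor of dendritic cells, was listed at 0 in 5 libraries, and siNC replicate 2 held a single read (0.0360 FPKM). A count of 0 allows up to 3 reads per library, which is 0.105 to 0.112 FPKM for this gene.

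**Figure D1:**
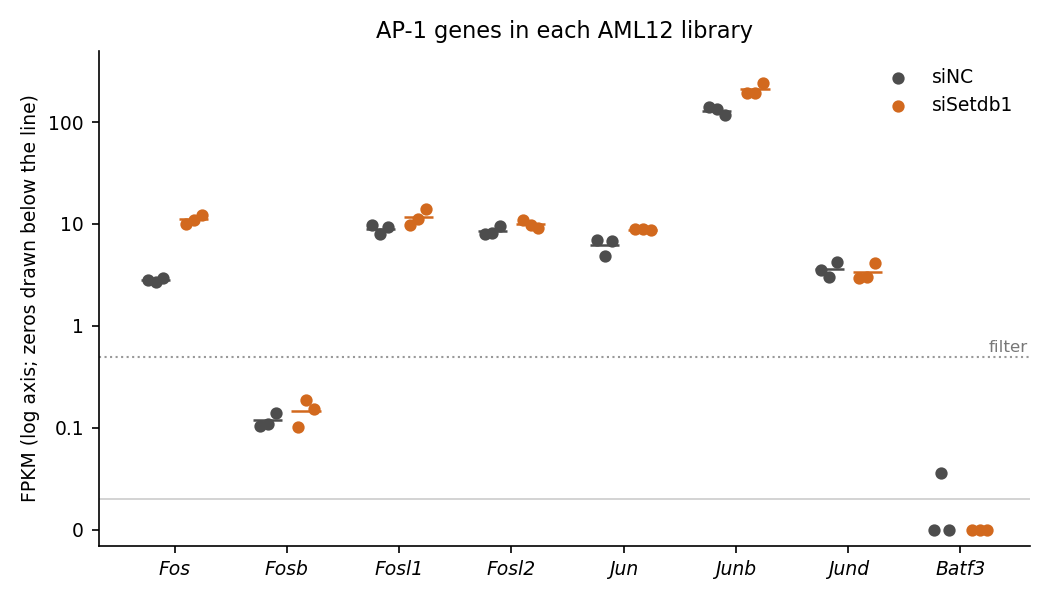
FPKM (log axis) of the 8 AP-1 genes, with 1 point per library in siNC (grey) and siSetdb1 (orange). Bars mark group means, the dotted line is the filter at 0.5 FPKM, and values of 0 are drawn at the mark labelled 0. Fos went from 2.82 to 11.1 FPKM on average, Junb lay above all other members, and Fosb and Batf3 lay below the filter.

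The order of levels was set by Junb in both groups. In siNC, Junb (130 FPKM) was followed by Fosl1 (9.02), Fosl2 (8.58), Jun (6.19), Jund (3.61), Fos (2.82), Fosb (0.118) and Batf3 (0.0120 FPKM). The ranges of Fosl1 and Fosl2 overlapped, and the other neighbours in this order did not overlap. In siSetdb1 the order was Junb (210 FPKM), Fosl1 (11.7), Fos (11.1), Fosl2 (9.91), Jun (8.83), Jund (3.36), Fosb (0.147) and Batf3 (0 FPKM). There the ranges of Fosl1, Fos and Fosl2 overlapped from neighbour to neighbour. Fos thus went from rank 6 to rank 3, to a level within the range of Fosl1.

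The make-up of the FOS transcripts differed between the groups, and that of the JUN transcripts was dominated by 1 gene in both. Fos made up 13.5%, 14.4% and 13.4% of the summed FPKM of the 4 FOS genes in siNC and 32.7%, 34.0% and 34.7% in siSetdb1. Fosl2 made up 38.8% to 43.4% in siNC and 25.6% to 35.3% in siSetdb1, and Fosl1 41.9% to 47.1% and 31.7% to 39.3%. Thus, by these FPKM, the FOS transcripts were mainly of the FRA genes in siNC and split about evenly between Fos, Fosl1 and Fosl2 in siSetdb1. The Fosl1 level, and with it the FOS sum, may include reads of Ccdc85b from the exonic stretch that both genes share. Fos stood at 0.308 to 0.349 of the Fosl2 level in siNC and at 0.926 to 1.36 of it in siSetdb1. Junb made up 91.3% to 94.4% of the summed JUN genes in siNC and 94.2% to 95.0% in siSetdb1. The JUN sum went from 139 ± 12 to 222 ± 29 FPKM and the FOS sum from 20.5 ± 1.6 to 32.9 ± 2.3 FPKM, ratios of 1.59 and 1.60. The ratio of FOS to JUN transcripts therefore had the same mean in both groups, 0.149, with a range of 0.134 to 0.173 in siNC and 0.139 to 0.158 in siSetdb1. These are transcript levels, and protein was not measured.

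**Figure D2:**
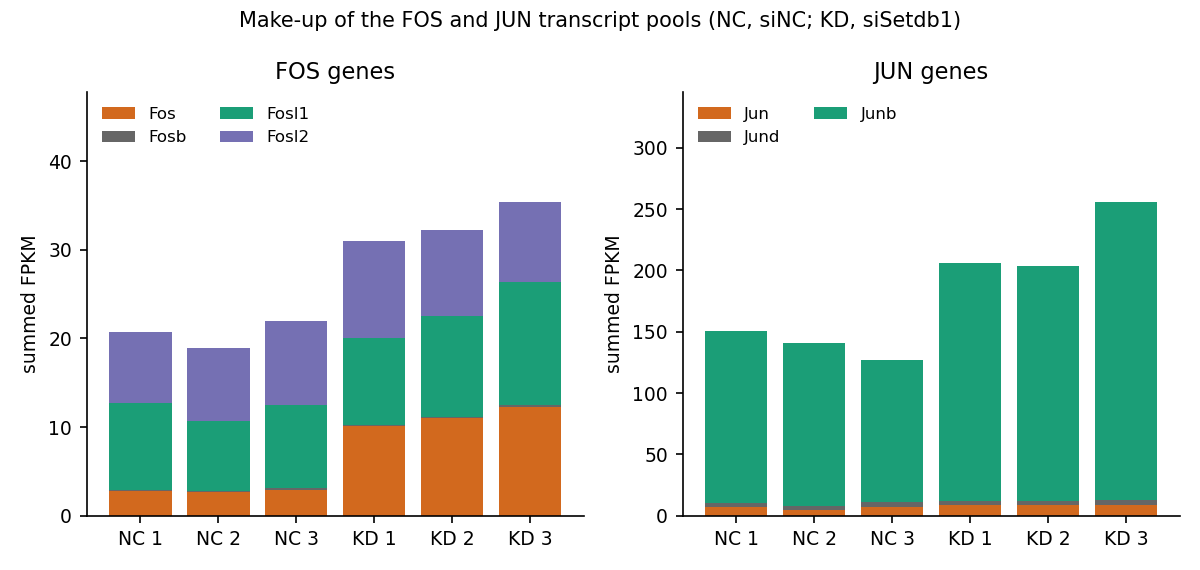
Stacked bars of FPKM for the 4 FOS genes (left) and the 3 JUN genes (right) in each library; NC is siNC and KD is siSetdb1, numbered by replicate. The FOS sum is 18.9 to 22.0 FPKM in siNC and 31.0 to 35.4 FPKM in siSetdb1, and Junb fills 91.3% to 95.0% of each JUN bar.

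Other proteins known to pair with FOS or JUN were examined next. Of 17 listed partner genes, 15 were in the table and 12 were tested, of which 3 rose, none fell and 9 did not pass (of all tested genes, 6.87% were called higher and 8.27% lower). The median log2 difference of the 12 was 0.11, against -0.018 over all tested genes. The genes that rose were all small MAF genes, whose proteins have a leucine zipper but no activating domain. Mafk had 6.78 to 8.60 FPKM in siNC and 10.7 to 11.8 FPKM in siSetdb1 (log2 difference 0.53, limma adjusted p = 0.0117). Maff rose from 47.4 ± 2.6 to 62.6 ± 3.9 FPKM (0.39, limma adjusted p = 0.0154) and Mafg from 18.4 ± 0.7 to 22.0 ± 0.7 FPKM (0.25, limma adjusted p = 0.043). The stress factor gene Atf4 (196 and 219 FPKM, 0.16, limma adjusted p = 0.117) and the antioxidant regulator Nfe2l2 (49.6 and 46.7 FPKM, -0.09) did not pass. With 1 library left out, 1 partner passed when it was siNC replicate 2, siSetdb1 replicate 1 or siSetdb1 replicate 3, none when it was siSetdb1 replicate 2, and 2 or 3 otherwise.

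Genes of the MAP kinase chains that act on AP-1 came next. Of 30 listed kinases 28 were tested, of which 3 rose, 1 fell and 24 did not pass, so that 14.3% were called against 15.1% of all tested genes, and the median was 0.03. Map2k1, the gene of the ERK-activating kinase MEK1, rose from 44.1 ± 1.4 to 55.6 ± 1.9 FPKM (0.33, limma adjusted p = 0.0157). Rps6ka4, the histone kinase MSK2 that acts below ERK and p38, rose from 20.1 ± 1.9 to 25.5 ± 1.0 FPKM (0.33, limma adjusted p = 0.0369). Gsk3b, a kinase that inhibits DNA binding by JUN, rose by 0.28 and Map2k6, the gene of a p38-activating kinase, fell by 0.39 (limma adjusted p = 0.0447 and 0.027). The ERK1 gene Mapk3 had 73.3 ± 7.2 and 66.9 ± 2.8 FPKM and the MEK2 gene Map2k2 29.8 ± 3.9 and 28.0 ± 1.3 FPKM, and neither passed. Without siNC replicate 2 or any 1 siSetdb1 library no kinase passed, without siNC replicate 3 only Map2k1 did, and without siNC replicate 1 the count was 6.

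Among genes of factors that act on FOS and JUN promoters, the share called was near that of all tested genes. Of 16 listed genes 15 were tested, of which 2 rose and 13 did not pass (13.3% against 15.1% of all tested genes, median 0.17). These were 2 MEF2 genes, whose proteins bind the Jun promoter: Mef2a had 4.82, 6.63 and 6.82 FPKM in siNC and 8.61, 8.79 and 8.30 FPKM in siSetdb1 (0.44, limma adjusted p = 0.0434). Mef2d rose from 12.8 ± 0.6 to 16.3 ± 0.6 FPKM (0.33, limma adjusted p = 0.0215). Srf itself, the serum response factor gene, had 12.3 and 12.7 FPKM (0.03). Atf1 (28.2 and 32.6 FPKM) and the SRF coactivator gene Mrtfa (13.9 and 16.3 FPKM) did not pass (limma adjusted p = 0.0804 and 0.0912), and Mrtfa passed without siNC replicate 1 (0.0234). The count was 0 without siNC replicate 2 or any 1 siSetdb1 library and 3 without siNC replicate 1. Before adjustment, 9 of the 15 had a limma p under 0.05. The share of all tested genes under that unadjusted level was not counted, so nothing is read from this count. In 9 of the 15 every siSetdb1 library lay above every siNC library, and in 1 below (17.6% and 21.6% of all tested genes).

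Genes that limit AP-1 were called at the rate of all genes. Of 20 tested genes for mRNA decay, ubiquitin ligation, phosphatases and corepressors, 1 rose, 2 fell and 17 did not pass (15.0% called against 15.1% of all tested genes, median 0.05). Khsrp, whose protein binds AU-rich elements such as those of Fos and Jun transcripts and promotes their decay, had 55.0, 48.9 and 49.1 FPKM in siNC and 33.2, 35.8 and 35.5 FPKM in siSetdb1. It fell by 0.54 on the log2 scale (SE 0.07, limma adjusted p = 0.00494). Zfp36l1, another AU-rich element decay factor gene, fell from 21.8 ± 1.1 to 18.0 ± 0.7 FPKM (limma adjusted p = 0.0394), whereas its paralog Zfp36l2 had 132 ± 3.5 and 161 ± 15 FPKM (limma adjusted p = 0.052) and passed without siNC replicate 1 (0.0468). Dusp1, a phosphatase of JNK and p38, rose from 32.0 ± 4.1 to 43.2 ± 2.2 FPKM (0.43, limma adjusted p = 0.03). The corepressor gene Hdac3 had 30.5 ± 2.3 and 28.4 ± 0.8 FPKM and did not pass. Khsrp passed without any 1 of the 6 libraries, and it was the only gene of the list to pass without siNC replicate 2 or any 1 siSetdb1 library.

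Genes described as targets of AP-1 moved in both directions. Of 40 listed genes 37 were in the table and 29 were tested, of which 9 rose, 3 fell and 17 did not pass, or 41.4% called against 15.1% of all tested genes. Their median was 0.19. The list was written with earlier results of these data known, so neither its share of called genes nor its direction is independent evidence, and the same holds for the other lists. The genes that rose were Prl2c3, Prl2c2, Ptgs2, Csf2, Itga2, Hbegf, Plaur, Cd44 and Krt18. Of these, Prl2c3, Prl2c2 and Csf2 (0.0845 to 0.646 FPKM in siNC) passed the filter only with their siSetdb1 libraries. The filter thus favours rises among genes this low in siNC, and the 9 and the 41.4% include these 3. Ptgs2, the gene of the inducible cyclooxygenase, had 1.39, 1.38 and 2.66 FPKM in siNC and 4.66, 4.96 and 5.24 FPKM in siSetdb1 (1.11, limma adjusted p = 0.0071). Prl2c2 and Prl2c3 (proliferins), near-identical paralogs between which reads may be split, rose by 1.59 and 1.99 from 2 to 10 reads per siNC library. Hbegf (a ligand of the EGF receptor), Plaur (the urokinase receptor), Cd44 (a hyaluronan receptor) and Itga2 (a collagen-binding integrin subunit), described together for their roles at the cell surface after their values were seen, rose by 0.65, 0.58, 0.43 and 0.81.

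The target genes that fell were Ccl2, Spp1 and Bcl2l11. The chemokine gene Ccl2, which NF-kB also controls, fell from 302 ± 48 to 46.5 ± 2.6 FPKM (log2 difference -2.66, limma adjusted p = 1.16e-04). Spp1, the osteopontin gene, had 174, 231 and 256 FPKM in siNC and 118, 109 and 118 FPKM in siSetdb1, and the pro-apoptotic gene Bcl2l11 had 7.07 to 8.61 FPKM against 4.79 to 5.53 FPKM. The most abundant genes that did not pass were the metallothionein gene Mt1 (1081 and 868 FPKM, limma adjusted p = 0.0992) and the ferritin gene Fth1 (1055 and 832 FPKM, limma adjusted p = 0.104). The cyclin gene Ccnd1, a frequently cited target of JUN in hepatocytes, had 104 to 114 FPKM in siNC and 101 to 109 FPKM in siSetdb1. Among target genes, 7 passed without siSetdb1 replicate 2 and 10 to 13 without any 1 other library.

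Among other immediate-early genes most calls were higher, and no heat shock gene passed. Of 24 tested immediate-early genes outside the family, 10 rose, 1 fell and 13 did not pass. That is 45.8% called against 15.1% of all tested genes, with a median of 0.29. Dusp1, Maff and Ptgs2 among those that rose also stand in other lists, and this list too was written with earlier results known. The largest rises were those of Egr1 (mean 5.08 to 63.6 FPKM) and Dusp5 (mean 9.65 to 33.3 FPKM), and Ier2, Klf6 and Myc rose by 0.77, 0.84 and 0.51. Gadd45b, a stress-induced gene, fell from 44.5 ± 4.3 to 22.4 ± 2.5 FPKM (-0.96, limma adjusted p = 0.0022). Atf3 (12.5 and 13.2 FPKM), Ier3 (106 and 116 FPKM) and Ccn1 (60.3 and 70.7 FPKM) did not pass. The count was 7 without siNC replicate 2 or any 1 siSetdb1 library. Of 12 listed heat shock and stress genes, Hspa1a, Hspa1b and Hspb1 were under the filter. They had 0 to 10 reads per library, each with a higher mean in siSetdb1. Hspa1b had 0.0820 to 0.106 FPKM in siNC and 0.160 to 0.207 FPKM in siSetdb1. Of the 9 tested genes none passed the limma fit, against 15.1% of all tested genes. Among them 3 had an unadjusted limma p under 0.05, a level for which the share of all tested genes was not counted. The median log2 difference of the 9 was -0.09. With limma-voom none passed, with the variance trend on reads Hspe1 did, with GC and length trends removed 3 did, and without siNC replicate 1 only Dnajb1 did. Hspa8 had 419 and 398 FPKM. Hsp90aa1 had 184 FPKM in siNC replicate 1 and 350 to 390 FPKM in the other 5 libraries. Whether stress had a part in the values of the members was not tested.

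**Figure D3:**
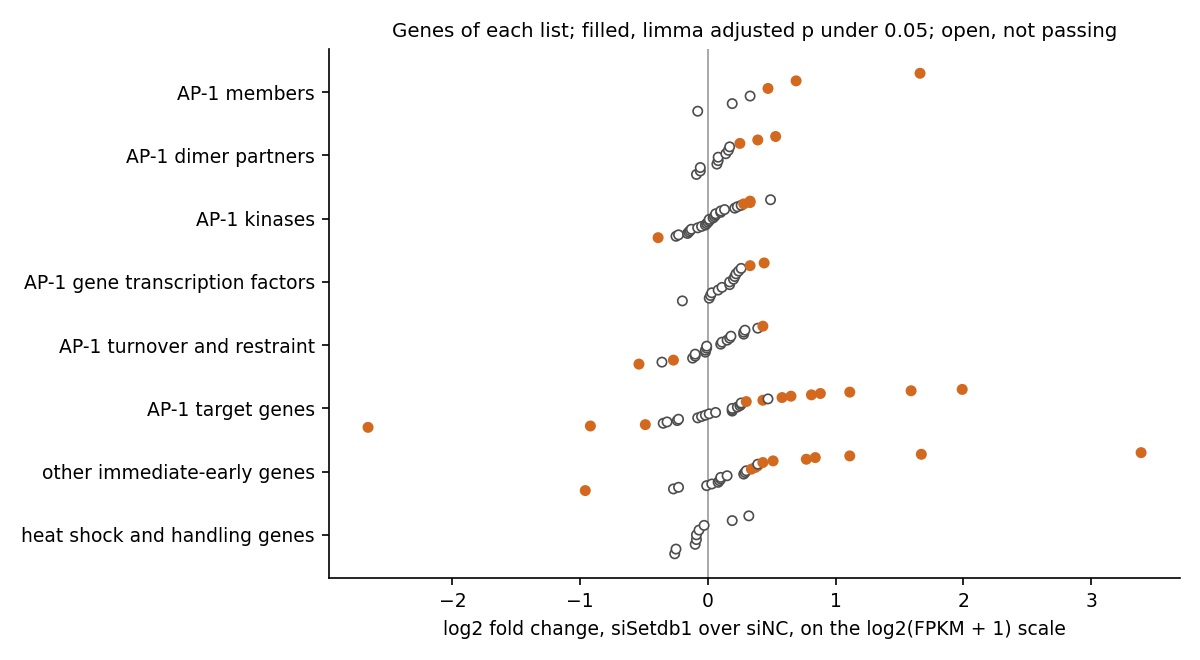
Each point is a tested gene, placed by its log2 fold change (siSetdb1 over siNC, pseudocount 1) within its list; filled points passed limma at adjusted p under 0.05. Fos is the filled member at 1.66, the target list holds filled points on both sides, from -2.66 to 1.99, and no heat shock gene is filled.

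The genes whose profile over the 6 libraries was nearest to that of Fos, by Euclidean distance between centred log2(FPKM + 1) values, were Gsta2 (0.26), Sdcbp2 (0.27) and Arhgap40 (0.27). Gsta2, a glutathione transferase gene with a near-identical paralog, had 1.88 to 2.58 FPKM in siNC and 8.31 to 9.96 FPKM in siSetdb1. Sdcbp2, a syntenin gene, had 0.575 to 1.08 and 3.77 to 5.21 FPKM, and Arhgap40 had 0.391 to 0.432 and 2.95 to 3.28 FPKM. Arhgap40 lay under the filter in every siNC library (15 or 16 reads each) and passed it only with its siSetdb1 libraries. The filter favours rises among genes this low in siNC. The nearest to Jun were Lrrc51, Dusp1 and Rnf39, each at 0.14. In Dusp1 (35.0, 27.4 and 33.7 FPKM) and Rnf39 (18.9, 14.9 and 18.3 FPKM), as in Jun, siNC replicate 2 was the lowest of the siNC libraries. The genes were picked for closeness over these same libraries, so this likeness follows from the choice. Among the other members, siNC replicate 2 was also the lowest for Fos, Fosl1 and Jund, and not for Fosb, Fosl2, Junb or Batf3. Distances of this kind rest on 2 groups of 3 libraries and describe these libraries only.

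**Figure D4:**
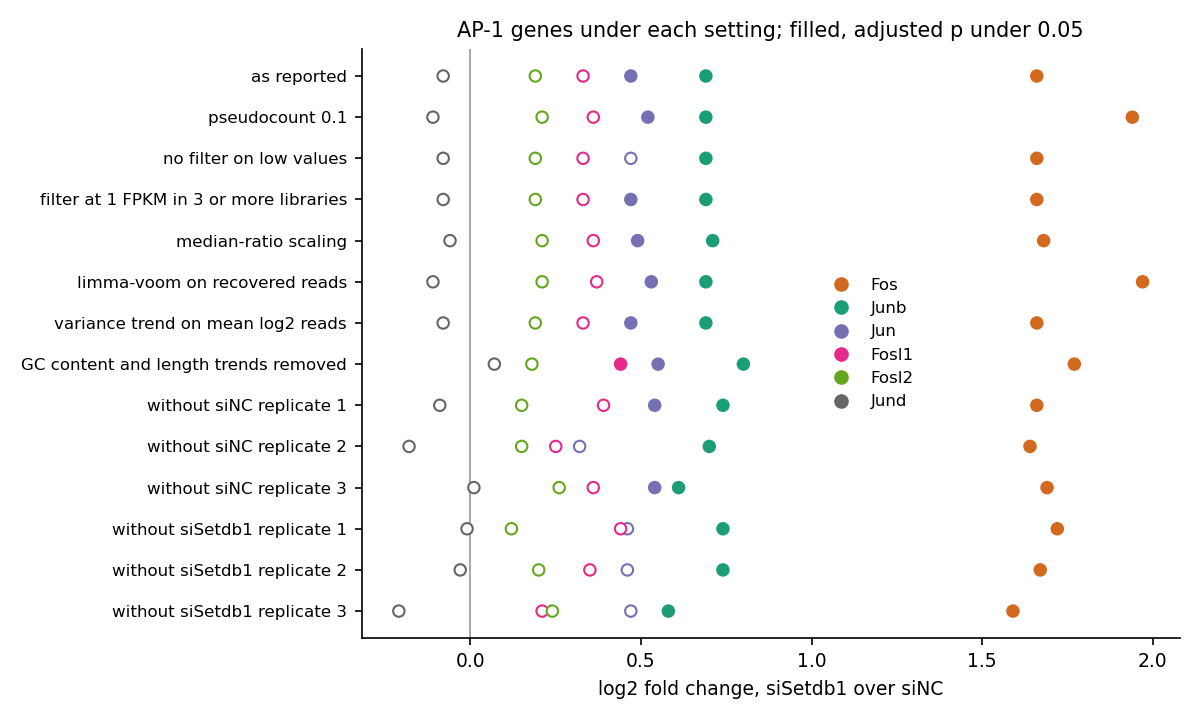
Log2 fold changes (siSetdb1 over siNC) of the 6 tested AP-1 genes as reported and under 13 alternatives (the replicate block is not drawn), with filled points where adjusted p was under 0.05. Fos stays between 1.59 and 1.97 and Junb between 0.58 and 0.80, all filled; Jun is open in 5 of the 13, Fosl1 is filled in 1, and Jund lies on both sides of 0.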

How the data were processed

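Poly(A) RNA of 6 AML12 libraries was sequenced, 3 per group, at 72 h. The deposited table gives FPKM per gene as the authors made it; the unit was read from the values, since the header names none. Named without role or order in the submitters' processing notes are mm10, RSEM 1.2.12, DESeq2 1.4.5, Bowtie2 2.2.5 and HISAT2 2.0.4. FPKM times GENCODE M21 exon length, divided by a scale fitted for each library, gave whole reads within 0.01 for 98.6% of genes. The fitted scales correspond to totals of 16790582 to 17835060 reads per library. A count test had been planned in case the table held counts, and was not used because it holds FPKM.

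Genes that reached 0.5 FPKM in 3 or more of the libraries (12846 of 25416) were fitted as log2(FPKM + 1) on group with limma 3.58.1 in R 4.3.3 (robust, with a mean-variance trend), and p-values were adjusted by Benjamini-Hochberg over all of them at 0.05. The fit was tested on simulated data. Alternatives were a pseudocount of 0.1, no filter, a filter at 1 FPKM, median-ratio scaling, limma-voom on recovered reads, a variance trend on reads, removal of GC and length trends, a replicate block, and each library left out over the same genes.

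The members and gene lists were chosen with earlier results of these data known. Genes were named by a rule: the members, Setdb1, up to 4 called genes per list of largest change whose groups did not overlap, up to 2 most abundant genes per list that did not pass, and the 3 nearest profiles to Fos and to Jun. Other names were added after their values were seen, among them Srf, Atf1, Mrtfa, Ccnd1, Atf3, Ier2, Klf6, Myc, Hspe1 and the remaining called targets. Of the lists, 6 genes stand in more than 1. Upstream sequence came from RefSeq (GRCm38.p6), matched by symbol for 7 of 8 members.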

Additional observations from a re-analysis of the deposited data

How the results depend on the processing

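As a description of members selected on this contrast, Fos and Junb passed in each alternative run, and Jun did not with no filter, with a replicate block or with 4 of the 6 single libraries left out. Of 616 values of 44 named genes under the alternatives, 523 stayed on their side of the threshold, 83 no longer passed, 10 newly passed and 0 that passed in either fit changed sign. Differences that passed in neither fit changed sign for Jund (-0.08 to 0.07 with GC and length trends removed and 0.01 without siNC replicate 3) and, without siNC replicate 1, for Map2k2 (-0.08 to 0.02) and Hsp90aa1 (0.32 to -0.02). Over all tested genes the count of 1945 became 890 with no filter and 1015 with the replicate block, and 683 to 2176 with 1 library left out. It split into 883 higher and 1062 lower, against 997 and 847 with median-ratio scaling and 1387 and 1326 with GC and length trends removed. With no filter, 1 kinase, 0 transcription factors, 1 turnover gene and 7 immediate-early genes passed. With GC and length trends removed, 7 kinases, 5 transcription factors, 5 turnover genes and 3 heat shock genes passed. With limma-voom 4 transcription factors passed, and with the variance trend on reads 4 transcription factors and 1 heat shock gene. With 1 library left out the counts were 2 to 3 for members, 0 to 3 for partners, 0 to 6 for kinases, 0 to 3 for transcription factors, 1 to 4 for turnover genes, 7 to 13 for targets, 7 to 11 for immediate-early genes and 0 to 1 for heat shock genes. Fewer libraries or more genes in a fit change the adjustment by construction, and otherwise the cause was not tested. Reads of 11 to 20 per library limit Fosb, and 0 or 1 limit Batf3.

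With the replicate block 1 partner, 0 kinases, 0 transcription factors and 2 members passed. The labels do not say that a number joins samples, and deviations of same-numbered libraries correlated at -0.157, 0.167 and -0.172 across genes, so the numbers were not taken as pairs. siNC replicate 1 correlated best with siSetdb1 replicate 3 (0.283).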

Other observations

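Several AP-1 targets and immediate-early genes were too low for the filter and were not tested, and 3 of them are given here as values, chosen after these were seen. Mmp13, the collagenase 3 gene, had 0.446, 0.967 and 1.11 FPKM in siNC and 0.325, 0.153 and 0.147 FPKM in siSetdb1. Its siSetdb1 levels all lay below its siNC levels, opposite to those of Fos and Jun. Il11, a cytokine gene of the IL-6 family, had 0.114, 0.110 and 0.196 FPKM in siNC and 0.389, 0.422 and 0.404 FPKM in siSetdb1. Klf2, an immediate-early gene of the KLF family, had 0.0967, 0.156 and 0.0946 FPKM in siNC, and 0.470, 0.476 and 0.304 FPKM in siSetdb1. For Il11 and Klf2 every siSetdb1 library lay above every siNC library. These values rest on few reads per library. Mmp13 had 20 to 51 reads in siNC and 7 to 15 in siSetdb1, Il11 4 to 7 and 14 to 15, and Klf2 3 to 5 and 10 to 15. How often groups did not overlap among genes under the filter was not counted, so nothing is read from it here.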
